A study of Mus musculus with 12 samples.

Results

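The integrated stress response is described here through 10 genes, chosen by their symbols: the kinase genes Eif2ak2, Eif2ak3 and Eif2ak4, the genes Atf4, Atf5, Ddit3 and Ppp1r15a, and the genes Atf3, Trib3 and Chac1. They are 10 of the 19937 genes that the array names, and 9 of them are among the 13180 genes that were bright enough to test. Each has 1 probe set, a group of probes summarised to 1 value per array, so no choice between probe sets was needed. The RNA came from cells of #483, a single mouse clone of T cell acute lymphoblastic leukaemia on the C57BL6 strain, so other leukaemias are not covered. The groups were polysomal RNA of cells given 100 µM of 4EGI-1 for 2 h, cytoplasmic RNA of the same treatment, and polysomal and cytoplasmic RNA of control cells, with 3 arrays in each of the 4 groups. 4EGI-1 is a small molecule that keeps the cap-binding protein eIF4E from the scaffold protein eIF4G. The labels call the controls untreated, whereas the protocol names DMSO, the solvent. The polysomal RNA was pooled from the polysome fractions of a sucrose gradient. The other RNA is called cytoplasmic in the labels and total in the titles, and was taken from cells by Trizol, so it may hold nuclear RNA.

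In the integrated stress response, 4 kinases sense different stresses and phosphorylate the α subunit of the initiation factor eIF2, which lowers the start of translation on most mRNAs. The kinases are PERK (Eif2ak3, unfolded protein in the endoplasmic reticulum), PKR (Eif2ak2, double-stranded RNA), GCN2 (Eif2ak4, lack of amino acids) and HRI (Eif2ak1, lack of haem). The mRNAs of Atf4, Atf5, Ddit3 and Ppp1r15a carry short upstream open reading frames in their leaders, through which they are translated better when eIF2 is phosphorylated. ATF4 then drives transcription of Ddit3, which encodes CHOP, and with CHOP that of Trib3 and Chac1. Ppp1r15a encodes GADD34, which brings a phosphatase to eIF2 and ends the response. The arrays measured mRNA, and neither eIF2 phosphorylation nor any protein was measured.

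Promoter stretches are shown for the 4 members whose start region holds, letter for letter, an element that ATF4 or its relatives are known to bind. Of the 4, Chac1, Trib3 and Ppp1r15a rose with 4EGI-1 in both fractions, as described later, and Atf3 was too dim to test. Ddit3 and Eif2ak3 also rose in both fractions, and Atf4 in polysomal RNA, with no match in these windows. A link between matches and changes was not tested. The RefSeq promoter table of build GRCm38.p6 held all 10 members, with 12 promoters that run from 250 bases before to 50 bases after each start. The core of the C/EBP-ATF response element, TGATGNAA, was searched on both strands. It lay in 3 members, Chac1, Trib3 and Atf3, in 4.51% of all genes there and in 3.97% of all 32851 promoters. The longer form TGATGNAAT lay in 0 members, in 1.08% of all genes and in 0.965% of all promoters. The cAMP response element TGACGTCA reads alike on both strands and overlaps neither form. It lay in 1 member, Ppp1r15a, in 2.03% of all genes and in 1.79% of all promoters. Since the members were chosen as genes of this response, their share describes the choice and is no result of these arrays. Capitals mark the match in each stretch, which is written 5′ to 3′ on the gene's strand.
Chac1 (chr2:119350999-119351096, plus strand, match beginning 193 bases before the start): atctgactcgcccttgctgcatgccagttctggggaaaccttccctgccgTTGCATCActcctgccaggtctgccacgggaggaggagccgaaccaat
Trib3 (chr2:152344029-152344056, minus strand, match beginning at base 15 after the start): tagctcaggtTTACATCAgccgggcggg
Atf3 (chr1:191183396-191183493, minus strand, match beginning 110 bases before the start): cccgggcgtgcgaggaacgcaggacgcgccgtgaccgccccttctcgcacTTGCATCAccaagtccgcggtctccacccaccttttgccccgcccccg
Ppp1r15a (chr7:45526269-45526330, minus strand, match beginning 12 bases before the start): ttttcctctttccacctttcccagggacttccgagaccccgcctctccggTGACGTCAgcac
A match describes letters only, and the members without one may hold sites outside these windows or with other letters. For the first 3 stretches the match is the core read on the opposite strand.

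All values are log2 intensities made by the authors with RMA, in which each array was brought to a common scale, so a shift in total polysomal RNA or in overall translation leaves no trace in them. Levels of different genes are not comparable. A gene passed when its adjusted p over all 13180 genes was below 0.05 in limma, fitted to all 12 arrays. Arrays of a group correlated at 0.985 to 0.997 over all tested genes, and the median gene varied more in cytoplasmic RNA (SD 0.121 in 4EGI-1 cells and 0.133 in control cells) than in polysomal RNA (0.0761 and 0.0745 in the same order of treatment). All 11 T cell markers on the array lay above the low-value limit, with means of 6.61 to 12.05. Of 19 markers of B cells, myeloid, erythroid, stromal and endothelial cells, 10 lay above it, and the 19 had means of 4.42 to 7.21, so the ranges of the 2 sets overlapped. In bulk RNA, fewer cells of a type and less RNA per cell cannot be told apart. The design text calls the replicates biological and gives no further word on the cultures, so p-values cover only the scatter of these arrays, which may be technical.

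In cytoplasmic RNA, 5 of the 9 tested genes rose with 4EGI-1 (Chac1, Ddit3, Eif2ak3, Trib3 and Ppp1r15a), 1 fell (Eif2ak2) and 3 did not pass (Atf4, Atf5 and Eif2ak4). Of all tested genes, 10.1% rose and 7.79% fell. In polysomal RNA, 6 of the 9 rose (the same 5 and Atf4), 0 fell and 3 did not pass (Eif2ak2, Eif2ak4 and Atf5), where 13% of all tested genes rose and 12.1% fell. The median change of the 9 genes was 0.53 in cytoplasmic RNA and 0.52 in polysomal RNA, and that of all tested genes was -0.03 in both. The 4EGI-1 and control arrays did not overlap for 8 of the 9 genes in cytoplasmic RNA, nor for 8 of 9 in polysomal RNA, where this held for 26.5% and 48.7% of all tested genes.

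**Figure D1:**
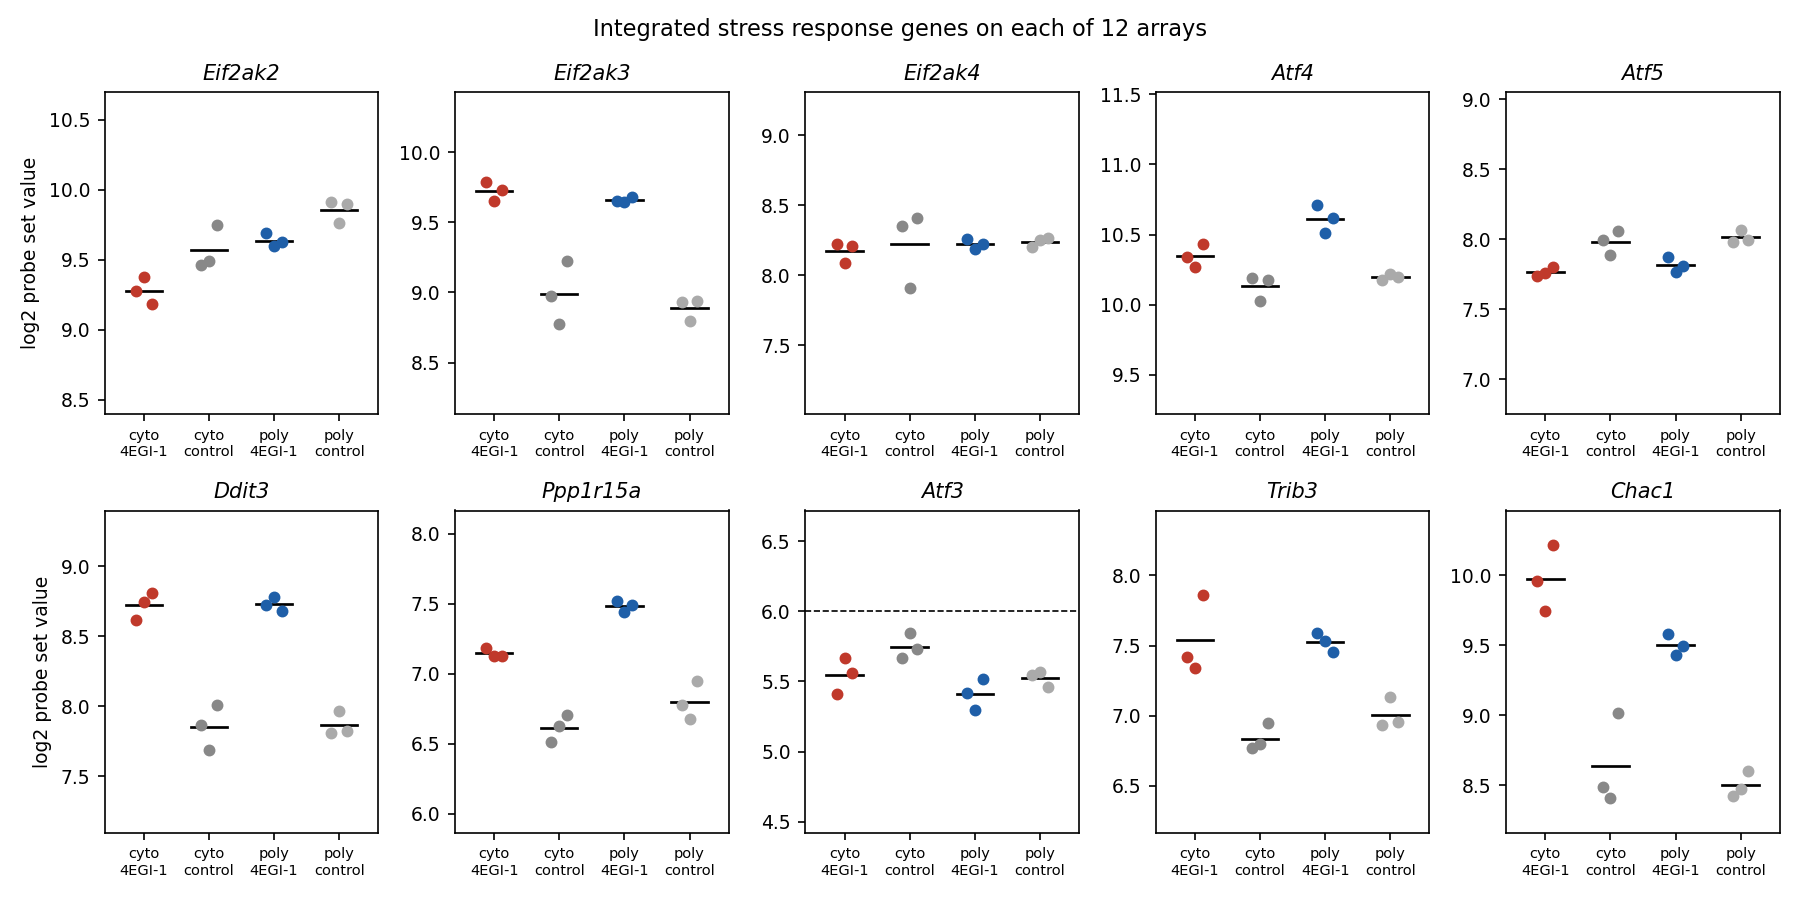
Each panel plots the log2 intensity of a gene on the y axis, with a point per array and a black bar for the mean of each of the 4 groups of 3 arrays. Chac1, Ddit3, Eif2ak3, Trib3 and Ppp1r15a lie higher with 4EGI-1 in both RNA fractions, Atf4 is higher in polysomal RNA, and Atf3 stays under the low-value limit, drawn as a dashed line at 6.0.

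Of the eIF2 kinases, Eif2ak3 alone passed with a rise. Eif2ak3 read 9.79, 9.65 and 9.73 in cytoplasmic RNA of 4EGI-1 cells, against 8.97, 8.77 and 9.23 in control cells. In polysomal RNA Eif2ak3 read 9.65, 9.64 and 9.68 with 4EGI-1, against 8.93, 8.80 and 8.94 in control cells. All 6 arrays of 4EGI-1 cells lay above all 6 of control cells. The change was 0.73 ± 0.0991 (log2 ± SE, n = 3 arrays a group throughout), or 1.66-fold, in cytoplasmic RNA (limma's adjusted p = 0.000131). It was 0.77, or 1.71-fold, in polysomal RNA (limma's adjusted p = 4.21e-05).

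Eif2ak2, which interferon also induces, ran the other way. Eif2ak2 read 9.28, 9.38 and 9.18 in cytoplasmic RNA of 4EGI-1 cells, against 9.46, 9.49 and 9.75 in control cells. In polysomal RNA it read 9.69, 9.60 and 9.62 with 4EGI-1, against 9.91, 9.76 and 9.90 in control cells. The groups did not overlap in either fraction, and the gaps were small. In cytoplasmic RNA Eif2ak2 fell by 0.29 ± 0.0902 on the log2 scale, to 0.820 of the control (limma's adjusted p = 0.0392). That call ended in 8 of the 12 fits that leave out 1 array (adjusted p 0.0517 to 0.149): without cytoplasmic control array 3, cytoplasmic 4EGI-1 array 1 or 3, polysomal control array 1 or 3, or any of the polysomal 4EGI-1 arrays. It also ended without the low-value filter (0.0715) and in the 6 cytoplasmic arrays alone (0.156). In polysomal RNA the difference was -0.22 ± 0.0902 and did not pass (limma's adjusted p = 0.089). It passed there in the 6 polysomal arrays alone (0.019), with array weights (0.00862) and without cytoplasmic control array 3 (0.0406).

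Eif2ak4 showed no difference that passed. Its 3 cytoplasmic arrays read 8.23, 8.09 and 8.21 with 4EGI-1, against 8.35, 7.91 and 8.41 in control cells, and the polysomal ones read 8.26, 8.19 and 8.22 against 8.20, 8.25 and 8.27. The arrays of the treatments overlapped in both fractions. The 95% interval of the change ran from -0.28 to 0.18 in cytoplasmic RNA (limma's adjusted p = 0.799) and from -0.25 to 0.21 in polysomal RNA (0.94). The remaining kinase, Eif2ak1, differed by 0.11 in cytoplasmic RNA (limma's adjusted p = 0.376) and by -0.06 in polysomal RNA (0.681), and neither passed.

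Among the mRNAs with upstream open reading frames, Ddit3 and Ppp1r15a rose in both fractions, Atf4 in polysomal RNA, and Atf5 passed in neither. Atf4, the central transcription factor of the response, read 10.71, 10.51 and 10.62 in polysomal RNA of 4EGI-1 cells, against 10.18, 10.22 and 10.20 in control cells. In cytoplasmic RNA Atf4 read 10.34, 10.27 and 10.43 with 4EGI-1, against 10.19, 10.02 and 10.17 in control cells. The groups were apart in both fractions, by less in cytoplasmic RNA. The rise in polysomal RNA was 0.41 ± 0.0810, or 1.33-fold (limma's adjusted p = 0.00143). The difference in cytoplasmic RNA was 0.22 ± 0.0810, or 1.16-fold, with an interval of 0.04 to 0.39 (limma's adjusted p = 0.0817), and it passed when the arrays were quantile-normalised again (0.0418).

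Atf5, a relative of Atf4 whose leader has the same kind of upstream reading frames, read 7.74, 7.76 and 7.81 in cytoplasmic RNA of 4EGI-1 cells, against 7.99, 7.89 and 8.06 in control cells. In polysomal RNA Atf5 read 7.87, 7.77 and 7.81 with 4EGI-1, against 7.98, 8.06 and 7.99 in control cells. Every 4EGI-1 array was thus below every control array of its fraction, which is the opposite order to Atf4. The differences of -0.21 ± 0.0736 in cytoplasmic RNA (limma's adjusted p = 0.0589) and -0.20 ± 0.0736 in polysomal RNA (0.0634) did not pass. Some alternatives brought them past the threshold: quantile normalisation (0.0269 in cytoplasmic and 0.0443 in polysomal RNA), array weights (0.00368 and 0.00975), leaving out cytoplasmic control array 2 (0.0289, cytoplasmic) or array 3 (0.0434, polysomal), a stricter filter (0.0481, cytoplasmic) and the 6 polysomal arrays alone (0.024).

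Ddit3, which encodes the transcription factor CHOP, read 8.62, 8.74 and 8.81 in cytoplasmic RNA of 4EGI-1 cells, against 7.87, 7.69 and 8.01 in control cells. In polysomal RNA Ddit3 read 8.72, 8.78 and 8.68 with 4EGI-1, against 7.81, 7.96 and 7.82 in control cells. The 2 fractions thus held nearly the same values in each treatment. The rise was 0.87 ± 0.0908 in cytoplasmic RNA and 0.86 ± 0.0908 in polysomal RNA, 1.82-fold in both (limma's adjusted p = 1.34e-05 and 7.09e-06). By size of change, Ddit3 stood 145th among rises in cytoplasmic RNA and 206th in polysomal RNA.

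Ppp1r15a, whose promoter carries the cAMP response element shown above, read 7.18, 7.13 and 7.13 in cytoplasmic RNA of 4EGI-1 cells, against 6.51, 6.63 and 6.70 in control cells. In polysomal RNA Ppp1r15a read 7.52, 7.44 and 7.49 with 4EGI-1, against 6.78, 6.68 and 6.95 in control cells. The treatments were apart in both fractions, and with 4EGI-1 the polysomal arrays lay above the cytoplasmic ones. The rise was 0.53 ± 0.0831, or 1.45-fold, in cytoplasmic RNA (limma's adjusted p = 0.000419), and 0.68 ± 0.0831, or 1.61-fold, in polysomal RNA (2.58e-05).

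Of the genes downstream of ATF4 and CHOP, Chac1 had the largest rise of the 10 members in both fractions. Chac1 encodes an enzyme that degrades glutathione. It read 9.96, 9.75 and 10.21 in cytoplasmic RNA of 4EGI-1 cells, against 8.49, 8.41 and 9.01 in control cells, and 9.58, 9.43 and 9.49 in polysomal RNA with 4EGI-1, against 8.43, 8.47 and 8.60 in control cells. No array of 4EGI-1 cells reached down to the control arrays, and the cytoplasmic values spread more (SD 0.233 with 4EGI-1 and 0.329 in control cells) than the polysomal ones (0.0743 and 0.0921). The rise was 1.34 ± 0.142, or 2.52-fold, in cytoplasmic RNA (limma's adjusted p = 1.42e-05), the 26th largest of all tested genes. In polysomal RNA it was 1.00 ± 0.142, or 2.00-fold (limma's adjusted p = 0.000105), the 119th largest.

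Trib3, a pseudokinase that CHOP induces and that in turn binds ATF4 and CHOP, read 7.42, 7.34 and 7.86 in cytoplasmic RNA of 4EGI-1 cells, against 6.77, 6.80 and 6.95 in control cells. In polysomal RNA Trib3 read 7.59, 7.53 and 7.46 with 4EGI-1, against 6.93, 7.13 and 6.96 in control cells. The treatments did not overlap, and cytoplasmic 4EGI-1 array 3 lay above the other two. The rise was 0.70 ± 0.116, or 1.63-fold, in cytoplasmic RNA (limma's adjusted p = 0.000657), and 0.52 ± 0.116, or 1.44-fold, in polysomal RNA (0.00355).

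Atf3, a stress-induced factor that ATF4 is known to switch on and whose promoter stretch is shown above, was dim on all arrays. It read 5.41, 5.67 and 5.56 in cytoplasmic RNA of 4EGI-1 cells, against 5.67, 5.84 and 5.73 in control cells, and 5.42, 5.30 and 5.52 in polysomal RNA with 4EGI-1, against 5.54, 5.57 and 5.46 in control cells. All 12 values were below the low-value limit of 6.0, so Atf3 was not tested. With no filter its differences were -0.20 in cytoplasmic RNA (limma's adjusted p = 0.213) and -0.11 in polysomal RNA (0.527), and neither passed.

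**Figure D2:**
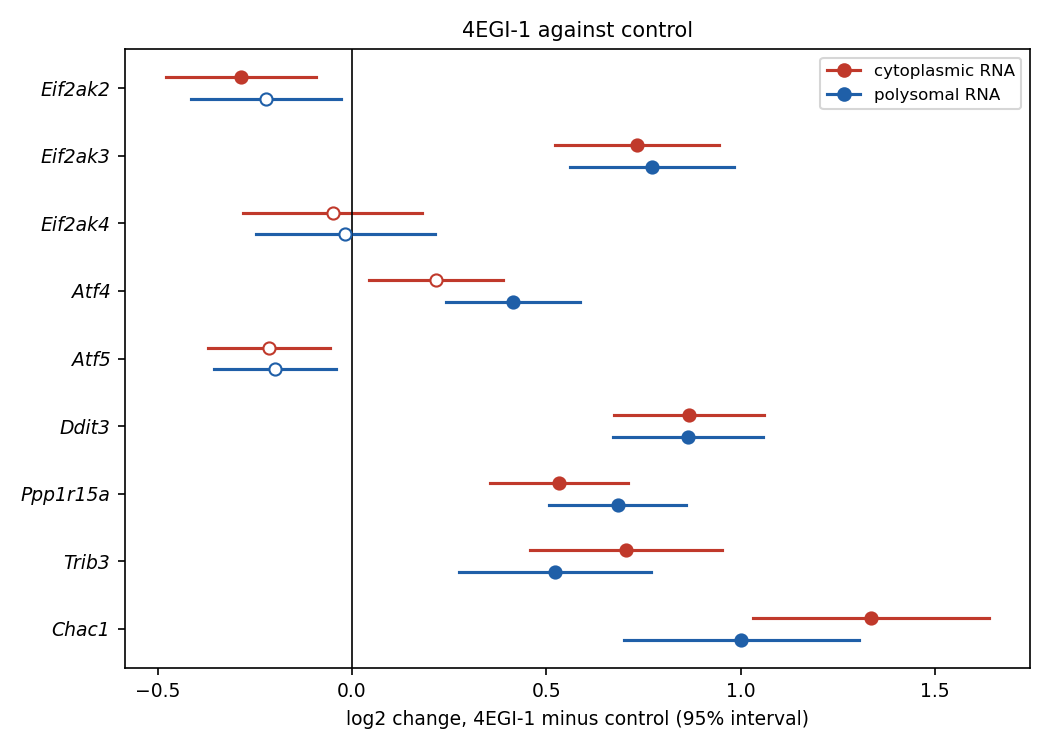
The x axis gives the log2 change, 4EGI-1 minus control, of the 9 tested genes down the y axis, with the 95% interval of the limma fit as a line, cytoplasmic RNA above polysomal RNA, and filled points for changes that passed. Chac1 lies farthest right at 1.34 in cytoplasmic RNA and 1.00 in polysomal RNA, Ddit3 has the same place in both, and Eif2ak2 and Atf5 lie left of 0.

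The question whether 4EGI-1 moved these mRNAs more in polysomal than in cytoplasmic RNA was asked with the difference of effects, the change in polysomal RNA minus the change in cytoplasmic RNA. None of the 9 genes passed it in limma, and none had an unadjusted p below 0.05, whereas 2.31% of all tested genes passed with a difference above 0 and 0.607% with one below 0. The widest differences were -0.33 ± 0.200 for Chac1 (interval -0.76 to 0.09, limma's adjusted p = 0.525) and 0.20 ± 0.115 for Atf4 (interval -0.05 to 0.44, adjusted p = 0.497). With array weights the difference of Chac1 was -0.44 and passed (limma's adjusted p = 0.0189). That fit leans mainly on cytoplasmic array 1 of each treatment, with weights of 2.44 in control and 3.83 in 4EGI-1 cells. The other cytoplasmic arrays had weights of 0.281 to 0.561. Atf4 therefore passed in polysomal RNA and not in cytoplasmic RNA without its changes being shown to differ. For Ppp1r15a the difference was 0.15 ± 0.117 (interval -0.10 to 0.40, limma's adjusted p = 0.666). For Ddit3 the interval was -0.28 to 0.27 (adjusted p = 0.999), so differences of that size remain possible. The median difference of the 9 genes was 0.03, beside -0.01 for all tested genes.

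Polysomal RNA was then set against cytoplasmic RNA within each treatment, which compares a gene's level in these RNA samples relative to the other genes. The share of an mRNA that sits in polysomes cannot be read from this, because each array was brought to a common scale. The cytoplasmic RNA may, besides, hold nuclear RNA. The differences also depend on how the arrays were scaled, as the counts with median centring given later show. In 4EGI-1 cells 3 of the 9 genes were higher in polysomal RNA (Eif2ak2, Ppp1r15a and Atf4), 1 was lower (Chac1) and 5 did not pass. The shares over all tested genes were 9.56% higher and 7.15% lower. In control cells 1 gene, Eif2ak2, was higher, 0 were lower and 8 did not pass, where 16.7% of all tested genes were higher and 12.2% lower. The polysomal and cytoplasmic arrays did not overlap for 4 of the 9 genes in 4EGI-1 cells and for 1 in control cells, beside 36.6% and 41.5% of all tested genes. The median difference of the 9 genes was 0.05 in 4EGI-1 cells and 0.03 in control cells.

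In 4EGI-1 cells Eif2ak2 was higher in polysomal RNA by 0.36 ± 0.0902 (limma's adjusted p = 0.0153) and Ppp1r15a by 0.34 ± 0.0831 (0.0134). Both calls ended without polysomal 4EGI-1 array 1 (0.0689 for Eif2ak2 and 0.0592 for Ppp1r15a). Atf4 was higher by 0.27 ± 0.0810 (limma's adjusted p = 0.0347), with polysomal values of 10.51 to 10.71 and cytoplasmic values of 10.27 to 10.43. Chac1 was lower in polysomal RNA, with a difference of -0.47 ± 0.142 (limma's adjusted p = 0.0343), with polysomal values of 9.43 to 9.58 and cytoplasmic values of 9.75 to 10.21. The call of Atf4 ended without cytoplasmic 4EGI-1 array 1 or 2, polysomal control array 3 or polysomal 4EGI-1 array 1 or 3 (0.0516 to 0.153), in the 6 arrays of 4EGI-1 cells alone (0.0625) and with no low-value filter (0.0655). The call of Chac1 ended without cytoplasmic 4EGI-1 array 1 or 3 or any of the polysomal 4EGI-1 arrays (0.0731 to 0.113), with no low-value filter (0.061), and with the arrays centred on their medians (-0.37, 0.124).

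In control cells Atf4 stood at nearly the same level in both fractions, with a difference of 0.07 (limma's adjusted p = 0.576), as did Ddit3 at 0.01 (0.953). Chac1 differed by -0.14 (limma's adjusted p = 0.524) and Ppp1r15a by 0.19 (0.109), and neither passed, although Ppp1r15a did with array weights (0.00542), with quantile normalisation (0.0263) and with median centring (0.0473). Trib3, with a difference of 0.17 (0.311), passed with array weights (0.0443). Eif2ak2 was higher in polysomal RNA of control cells by 0.29 ± 0.0902 (limma's adjusted p = 0.0237). That call ended without cytoplasmic control array 1 or 2 or polysomal control array 1 or 3 (0.0665 to 0.103), in the 6 arrays of control cells alone (0.0511) and with quantile normalisation (0.0501).

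**Figure D3:**
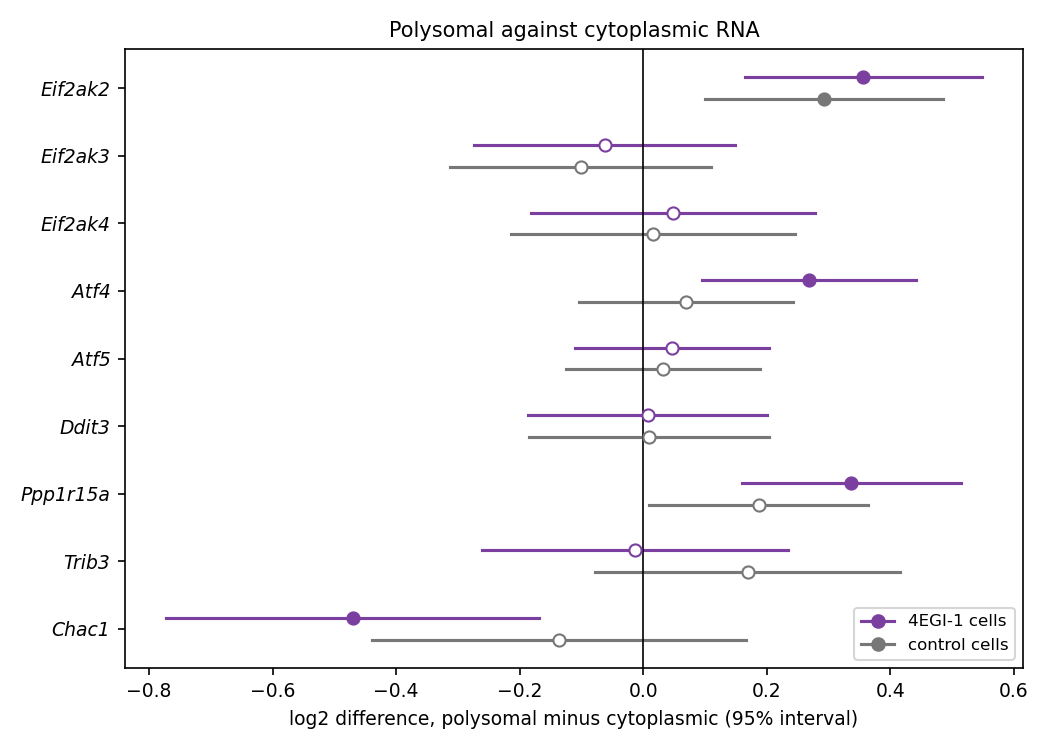
The x axis gives the log2 difference, polysomal minus cytoplasmic RNA, of the 9 tested genes down the y axis, with the 95% interval of the limma fit as a line, 4EGI-1 cells above control cells, and filled points for differences that passed. Eif2ak2 is filled in both treatments, Atf4 and Ppp1r15a lie right of 0 and Chac1 left of it in 4EGI-1 cells, and Ddit3 stays at 0.01 in both.

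The wider pathway was read through 7 gene lists, which share 6 genes, so Cebpg and Cebpb are counted in 3 of them and Atf6, Dnajb9, Dnajc3 and Jdp2 in 2 each. Each list's count is to be read beside the share of all tested genes, of which 10.1% rose and 7.79% fell in cytoplasmic RNA and 13% rose and 12.1% fell in polysomal RNA, with a median of -0.03 in both. Of the known amino acid response targets of ATF4, 29 of the 31 on the array were tested, and 11 (37.9%) rose with 4EGI-1 in cytoplasmic RNA, 0 fell and 18 did not pass. In polysomal RNA 13 (44.8%) rose, 0 fell and 16 did not pass. The list's median change was 0.24 in cytoplasmic RNA and 0.23 in polysomal RNA. Slc7a11, the cystine transporter, rose by 1.12 ± 0.0867 in cytoplasmic RNA and by 1.17 ± 0.0867 in polysomal RNA (limma's adjusted p in polysomal RNA = 3.82e-07). Slc1a4, a transporter of neutral amino acids, rose by 0.98 ± 0.116 and 1.05 ± 0.116 in the same order of fractions. Herpud1, a factor in the degradation of proteins from the endoplasmic reticulum, rose by 0.91 ± 0.116 and 1.10 ± 0.116. The serine and one-carbon genes of the list, Psat1, Phgdh, Psph, Shmt2 and Mthfd2, passed in neither fraction. Their changes ran from -0.13 to 0.23. The core TGATGNAA lay in promoters of 8 of the 26 list genes with a promoter in the table and of 4.51% of all genes there. Since the list was made of known ATF4 targets, its share describes the list and is no result of these arrays. Of the 8, Slc7a11, Slc1a4, Nupr1 and Herpud1 rose in both fractions, Asns and Jdp2 passed in neither, and Vldlr and Fgf21 were too dim to test.

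Slc7a3, a transporter of cationic amino acids, differed between the fractions. It rose by 0.37 ± 0.0842 in cytoplasmic RNA (limma's adjusted p = 0.00643) and by 0.94 ± 0.0842 in polysomal RNA (1.77e-06), with a difference of effects of 0.57 ± 0.119 (0.0167). It was the 1 gene of the list to pass that difference. In the 6 cytoplasmic arrays alone its rise there did not pass (adjusted p = 0.0591).

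Of the other CHOP-axis genes, 7 of 9 were tested. In cytoplasmic RNA 2 (28.6%) rose, beside 10.1% of all tested genes, and in polysomal RNA 4 (57.1%) rose, beside 13%, with 0 falling in either. Bcl2l11, which encodes the cell death protein BIM, rose by 0.75 ± 0.118 in cytoplasmic RNA and 0.67 ± 0.118 in polysomal RNA (limma's adjusted p = 0.000474 and 0.000657). Cebpg, a C/EBP factor that pairs with ATF4, rose by 0.58 ± 0.0863 and 0.45 ± 0.0863 (0.000274 and 0.00116). Tnfrsf10b, the death receptor DR5, rose by 0.51 ± 0.121 in polysomal RNA (0.00517), and its cytoplasmic difference of 0.25 did not pass (0.184). Dnajb9, a chaperone of the endoplasmic reticulum, rose by 0.40 ± 0.133 in polysomal RNA (limma's adjusted p = 0.0395). That call ended without polysomal control array 1 or 2 or polysomal 4EGI-1 array 1 or 3 (0.0506 to 0.209). It also ended with quantile normalisation (0.0507) and with median centring (0.0691).

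Most genes of eIF2 and its regulators did not pass. Of 18 tested, 4 (22.2%, beside 10.1% of all tested genes) rose and 0 fell in cytoplasmic RNA, with a list median of 0.07. In polysomal RNA 0 rose and 2 (11.1%) fell, a share near the 12.1% of all tested genes, and the list median was 0.01. Impact, an inhibitor of GCN2 activation, rose by 0.56 ± 0.129 in cytoplasmic RNA (limma's adjusted p = 0.00702; 0.0607 in the 6 cytoplasmic arrays alone), and Ibtk, whose mRNA is also translated under stress through upstream reading frames, by 0.52 ± 0.108 (0.00349). Nck1, an adaptor protein that regulates eIF2 phosphorylation, rose by 0.43 ± 0.133 (0.0368), and Eif2s2, the β subunit of eIF2, by 0.28 ± 0.0892 (0.0427). The call of Nck1 ended in 7 of the 12 fits with an array left out: without cytoplasmic control array 1 or 3, cytoplasmic 4EGI-1 array 1 or 2, or any of the polysomal 4EGI-1 arrays. That of Eif2s2 ended in 10 of 12, and held without cytoplasmic control array 2 and without cytoplasmic 4EGI-1 array 3. In polysomal RNA Dnajc3, the inhibitor p58IPK of PERK and PKR, fell by 0.39 ± 0.0773 (limma's adjusted p = 0.00149), and its cytoplasmic difference of -0.23 did not pass (0.0538), though it did with a stricter filter, median centring, array weights or a trend in the fit (0.00843 to 0.0444) and without cytoplasmic control array 3 (0.0284). Ppp1ca, a catalytic subunit of the phosphatase that GADD34 brings to eIF2, fell by 0.25 ± 0.0750 (0.0238), which ended without polysomal control array 2 or 3 or polysomal 4EGI-1 array 2 or 3 (0.0539 to 0.102).

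**Figure D4:**
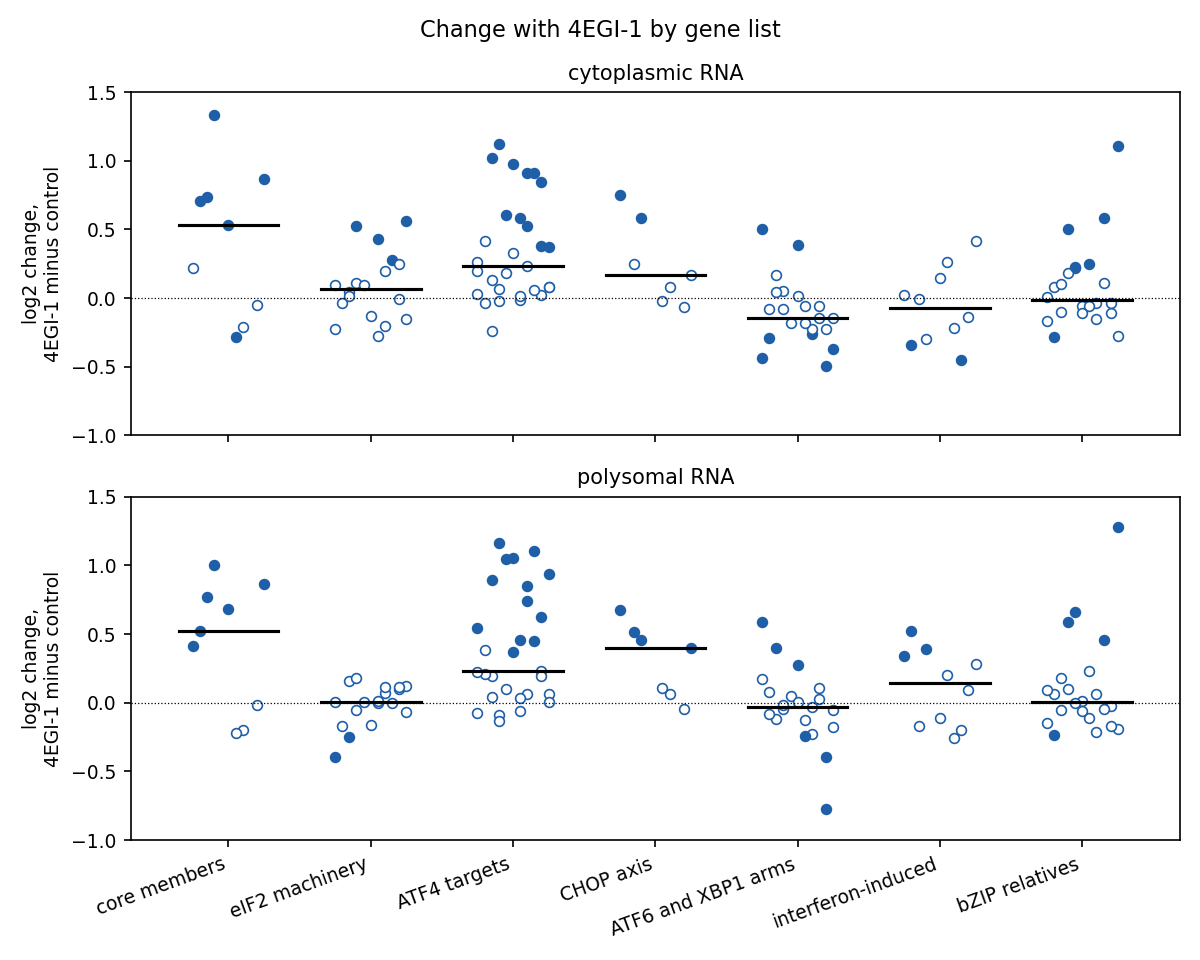
The y axis gives the log2 change, 4EGI-1 minus control, with a point for every tested gene of the lists along the x axis, filled where it passed, a black bar at each list's median, and a panel each for cytoplasmic RNA (top) and polysomal RNA (bottom). The ATF4 target list has 11 filled points in cytoplasmic RNA and 13 in polysomal RNA, all above 0, whereas the ATF6 and XBP1 list has filled points on both sides of 0.

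The ATF6 and XBP1 arms of the unfolded protein response, which PERK accompanies in the endoplasmic reticulum, were called in shares near those of all tested genes, apart from the falls in cytoplasmic RNA. Of 21 tested genes 2 (9.52%) rose and 5 (23.8%) fell in cytoplasmic RNA, beside 10.1% and 7.79% of all tested genes. In polysomal RNA 3 (14.3%) rose and 3 fell, beside 13% and 12.1%. The list medians were -0.14 in cytoplasmic RNA and -0.03 in polysomal RNA. Atf6, the sensor that becomes a transcription factor, rose by 0.50 ± 0.0719 in cytoplasmic RNA and 0.59 ± 0.0719 in polysomal RNA (limma's adjusted p = 0.000211 and 2.81e-05). Edem1, which helps to remove misfolded glycoproteins, rose by 0.39 ± 0.0707 and 0.28 ± 0.0707 (0.00141 and 0.00909). Sec61b, a subunit of the translocon, fell by 0.50 ± 0.116 and 0.77 ± 0.116 (0.00769 and 0.000185), and its cytoplasmic fall did not pass as the mean of all its probe sets (-0.28, 0.156) nor in the 6 cytoplasmic arrays alone (0.0503). Hyou1, a chaperone named after its values were seen, was the 1 gene of the list to pass the difference of effects, at 0.61 ± 0.123 (0.0124). Its change was -0.44 ± 0.0866 in cytoplasmic RNA (limma's adjusted p = 0.00253), and the 0.17 ± 0.0866 in polysomal RNA did not pass (0.174).

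Of 16 interferon-induced genes, the class to which Eif2ak2 also belongs, 10 were tested. In cytoplasmic RNA 0 rose and 2 fell, where 10.1% and 7.79% of all tested genes did, and in polysomal RNA 3 rose and 0 fell, where 13% and 12.1% did. Stat2, a transducer of interferon signals, fell by 0.34 ± 0.105 in cytoplasmic RNA (limma's adjusted p = 0.035) and rose by 0.52 ± 0.105 in polysomal RNA (0.00176), with a difference of effects of 0.86 (0.00426). Its cytoplasmic call ended without cytoplasmic control array 1 or 3 or cytoplasmic 4EGI-1 array 1 or 2 (0.062 to 0.15). It also ended in the 6 cytoplasmic arrays alone (0.142) and with median centring (0.0582). Ddx58, the RNA sensor RIG-I, differed by -0.29 in cytoplasmic RNA without passing (0.0519), rose by 0.39 in polysomal RNA (0.00805) and passed the difference of effects at 0.69 (0.0134). The cytoplasmic difference of Ddx58 passed without cytoplasmic control array 1 or cytoplasmic 4EGI-1 array 3 (0.0157 to 0.0275), and with a stricter filter, quantile normalisation or array weights (0.0263 to 0.0456). Usp18, which dampens interferon signals, fell by 0.45 in cytoplasmic RNA (limma's adjusted p = 0.00737). Adar, an RNA-editing enzyme, rose by 0.34 in polysomal RNA (0.0176), which ended without polysomal control array 1 or 2 or polysomal 4EGI-1 array 3 (0.0591 to 0.0659).

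Among 22 tested bZIP factors, the class of ATF4, ATF5, ATF3 and CHOP, 5 (22.7%) rose and 1 (4.55%) fell in cytoplasmic RNA, beside 10.1% and 7.79% of all tested genes. In polysomal RNA 4 (18.2%) rose and 1 fell, beside 13% and 12.1%. The list medians of -0.01 in cytoplasmic RNA and 0.01 in polysomal RNA were near the -0.03 of all tested genes. Jun, a component of AP-1, rose by 1.11 ± 0.128 and 1.28 ± 0.128 (limma's adjusted p in polysomal RNA = 4.82e-06). Nfe2l2, which encodes NRF2, rose by 0.66 ± 0.0735 in polysomal RNA (1.18e-05), by 0.23 ± 0.0735 in cytoplasmic RNA (0.0426), and passed the difference of effects at 0.43 (0.0368). Its cytoplasmic call ended in each of the 12 fits that leave out an array (0.0555 to 0.122), and its difference of effects was not rerun in them.

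Of 4 relatives of Trib3 and Chac1, 1 rose and 1 fell in cytoplasmic RNA, where 10.1% and 7.79% of all tested genes did, and 0 rose and 2 fell in polysomal RNA, where 13% and 12.1% did. Trib2, another Tribbles pseudokinase, fell by 0.66 ± 0.106 in cytoplasmic RNA and 0.61 ± 0.106 in polysomal RNA (limma's adjusted p = 0.000546 and 0.000642). Chac2, a second glutathione-degrading enzyme, rose by 0.31 ± 0.0961 in cytoplasmic RNA (0.0363), a call that held in 5 of the 12 fits with an array left out, those without cytoplasmic control array 2 or 3, cytoplasmic 4EGI-1 array 3 or polysomal control array 1 or 3. Ggct, an enzyme of the glutathione cycle that acts on gamma-glutamyl peptides, fell by 0.34 ± 0.105 in polysomal RNA (0.0272), and that call ended without any 1 of the 6 polysomal arrays (0.0596 to 0.0944).

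The genes whose levels ran most like those of Atf4 and Ddit3 over the 12 arrays were ranked by Pearson correlation among 12352 tested genes. Left out were all members, genes with provisional symbols, microRNAs, and small nucleolar and Cajal body RNAs. Likeness among the members was thus not ranked. Since the arrays fall into 4 groups, these correlations follow the group means and are given as a description. For Atf4 the closest were Golgb1 (0.976), Cct6b (0.964), Lclat1 (0.964), Ttc41 (0.964) and Zfp1 (0.963). For Ddit3 they were Gpr19 (0.990), Zbtb21 (0.981), Mt2 (0.980), Zfand2a (0.978) and Carns1 (0.975).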

How the data were processed

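RNA of 12 samples was measured on single-colour microarrays. The log2 values used are those the authors deposited. They were made with RMA, per the submitters' processing notes, in a version not given in the sources used here. Of 34760 probe sets, 21640 have 1 gene symbol in the platform annotation, which can be old, 1321 have several and 11799 have none. Each gene was represented by the probe set with the highest mean. Genes whose mean fell under that of 40% of probe sets (log2 6.0) were left out. limma 3.58.1 in R 4.3.3 (lmFit and eBayes) fitted a mean per group to 13180 genes, with Benjamini-Hochberg adjustment over all of them for each of 5 comparisons. The comparisons share groups of arrays. The script was tested on simulated data. Alternatives changed the filter, the normalisation, the choice of probe set, the arrays used, their weights and the replicate block. The array weights were 2.44 for cytoplasmic control array 1 and 3.83 for cytoplasmic 4EGI-1 array 1. They were 0.281 to 0.561 for the other cytoplasmic arrays and 1.15 to 1.94 for the polysomal arrays. Every result given with array weights therefore leans mainly on array 1 of each cytoplasmic group.

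The 10 members and the gene lists were chosen with earlier results of these data known. From each list the text names up to 4 genes with the smallest p-values among those that passed, and every passing gene of the eIF2 list. Hyou1, the serine and one-carbon genes and the genes with the promoter core were named outside this rule, after their values were seen. The number of arrays limits the precision.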

Additional observations from a re-analysis of the deposited data

How the results depend on the processing

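Under every alternative run, Ddit3, Chac1, Trib3, Ppp1r15a and Eif2ak3 rose in both fractions and Atf4 rose in polysomal RNA. Leaving out 1 array at a time gave 5 to 7 member calls in cytoplasmic RNA, 6 to 8 in polysomal RNA and 0 to 0 in the difference of effects, and 0 to 4 and 0 to 1 for polysomal against cytoplasmic RNA in 4EGI-1 and control cells. Of 4 member calls in 4EGI-1 cells for polysomal against cytoplasmic RNA, 2 held with no low-value filter. In control cells, 1 such call became 2 with median centring, 0 in the 6 arrays alone and 3 with array weights. The difference of effects, with 0, had 1 with array weights. The cause was not tested. Deviations of same-numbered arrays of 4EGI-1 and control cells correlated at -0.216, 0.562 and 0.516 in cytoplasmic RNA and at 0.0751, 0.163 and -0.055 in polysomal RNA. Between the fractions they correlated at 0.0362, 0.228 and 0.0187 in 4EGI-1 cells and at 0.0199, 0.141 and 0.125 in control cells. There the same number matched best for every polysomal array except 4EGI-1 array 1. Whether numbers mark shared cultures is not stated, and they were not taken to pair samples in the main fit. With the replicate block the counts were 6, 6, 0, 4 and 1, as without it, and with same-numbered fractions as 1 culture the last 3 were again 0, 4 and 1. With the replicate block Dnajc3 and Ddx58 passed in cytoplasmic RNA (adjusted p = 0.0422 and 0.0167 in limma, 0.0538 and 0.0519 without it). With no low-value filter, the calls of Nck1, Eif2s2, Stat2, Nfe2l2 and Chac2 in cytoplasmic RNA and of Dnajb9 in polysomal RNA ended (0.0632 to 0.0802). In the 6 cytoplasmic arrays alone, the cytoplasmic calls of Nck1, Eif2s2, Stat2, Nfe2l2 and Chac2 ended too (limma's adjusted p 0.127 to 0.186). Median centring ended those of Stat2, Nfe2l2 and Chac2 (0.0582 to 0.134). For list genes, the difference of effects was not rerun under the alternatives. How stable it is for Slc7a3, Hyou1, Stat2, Ddx58 and Nfe2l2 is therefore not known.

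Counts over all tested genes moved more. The 1325 rises and 1027 falls in cytoplasmic RNA were 731 and 369 in the 6 arrays alone and 2890 and 2667 with array weights. The 1599 falls in polysomal RNA were 2685 and 2750 under those settings. The 305 genes with a difference of effects above 0 became 1147 with weights, and the 80 with one below 0 became 28 without the filter, 45 with centring and 1691 with weights. In 4EGI-1 cells, 1260 genes higher in polysomal RNA became 2205 with centring and 2300 with weights, and 942 lower became 427 and 2372. In control cells, 1614 lower became 933 and 2845. Leaving out 1 array gave 869 to 1505 rises and 588 to 1622 falls in cytoplasmic RNA, 179 to 411 genes with a difference of effects above 0 and 19 to 259 with one below 0, and 549 to 1505 higher and 497 to 1143 lower in polysomal RNA of 4EGI-1 cells. Among the members, Eif2ak1 and the list genes named by their p-values, no value that passed turned its sign. For those list genes this covers only the changes with 4EGI-1 in each fraction. Signs of the other genes were not compared between settings.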
